A study of Mus musculus with 8 samples.

Results

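Collagen transcripts were examined in hearts of male and female C57BL/6 mice, a standard inbred laboratory strain, at 8 weeks of age. All rows of the deposited count table whose symbol has the form Col, a number, a, and a number were taken, which gave 44 genes of 49315. The 8 libraries comprise 4 from male and 4 from female hearts, and the labels name no treatment or genetic change in either group. Whether each library comes from a separate animal is not stated, so p-values measure the spread between these samples, which may be technical. The dissected part of the heart is not named either.

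Collagens are secreted or membrane proteins whose chains wind into a triple helix. Fibrillar collagens form the tensile cables between heart muscle cells, type IV collagens build the network of the basement membrane around muscle cells and capillaries, and beaded and fibril-associated collagens link these layers. In the heart, fibroblasts make most of the fibrillar chains, while endothelial and mural cells are known sources of basement membrane chains. RNA was measured here, not protein or deposited matrix.

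Counts per library totalled 39612848 to 47097765 in males and 32746054 to 35467832 in females, so sex and depth moved together. Levels below are CPM, the count scaled to a library size corrected by TMM, and 1 count was worth 0.0218 to 0.0302 CPM. A log2 fold change is the male over the female level, given with its standard error (SE). Adjusted p-values are from edgeR's quasi-likelihood test, corrected by the Benjamini-Hochberg method across 16180 genes, and a gene is said to have risen or fallen in males where this value is below 0.05.

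A pair of male libraries stood apart in markers of other cells. Male replicate 4 had a summed 533 CPM over 8 atrial muscle markers, against 2453 to 2875 CPM in the other male libraries and 2708 to 2955 CPM in the female ones. Male replicate 1 had 698 CPM over 10 macrophage and leukocyte markers, against 365 to 400.1 CPM in the other male libraries and 305 to 405 CPM in the female ones. The labelled tissue was checked with 10 markers of heart muscle, which summed to 88645 to 98787 CPM in males and 95178 to 96547 CPM in females, with 0 of them lacking counts.

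Male hearts held less RNA of several collagens from 4 of the 5 structural classes, while the chains of type I collagen, Col1a1 and Col1a2, and the abundant type IV chains Col4a1 and Col4a2 were not called. Of the 35 collagens that passed the filter on low counts, 7 fell in males, which were Col3a1, Col27a1, Col14a1, Col6a1, Col6a3, Col15a1 and Col4a6. That is 20% of those tested, against 1.76% of all genes tested that fell and 3.79% that were called in either direction. By edgeR 0 collagens rose, where 2.03% of all genes tested did. At an unadjusted p below 0.05, 1 collagen was higher and 14 were lower in males. The share of all genes under that rule was not taken, here or below. DESeq2 and limma-voom also gave 0 that rose, with 10 and 7 that fell. In either direction they called 964 and 615 genes in all, against 613 by edgeR. The log2 fold change was negative in 28 of the 35 genes, with a median of -0.17 over the family and -0.00074 over all genes tested. In 8 of the 35 the male values all lay below the female values, against 5.66% of all genes tested, and in 0 they all lay above, against 6.39%. These 8 are the called genes without Col6a1, whose ranges overlapped, plus Col5a3 and Col12a1. By class, 2 of 8 tested fibrillar, 1 of 7 fibril-associated, 2 of 8 basement membrane and multiplexin, 2 of 4 beaded and 0 of 8 other collagens fell, and differences between classes were not tested.

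The count of 7 depended on single libraries and on the method. It was 3 without female replicate 3, 4 without female replicate 1 and 4 without female replicate 4. It was also 3 without male replicates 1 and 4 together, and 3 with limma on the authors' normalized values of all 8 libraries. Col14a1, Col15a1 and Col3a1 were called in each case that left 3, and in all 8 leave-one-out fits.

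**Figure D1:**
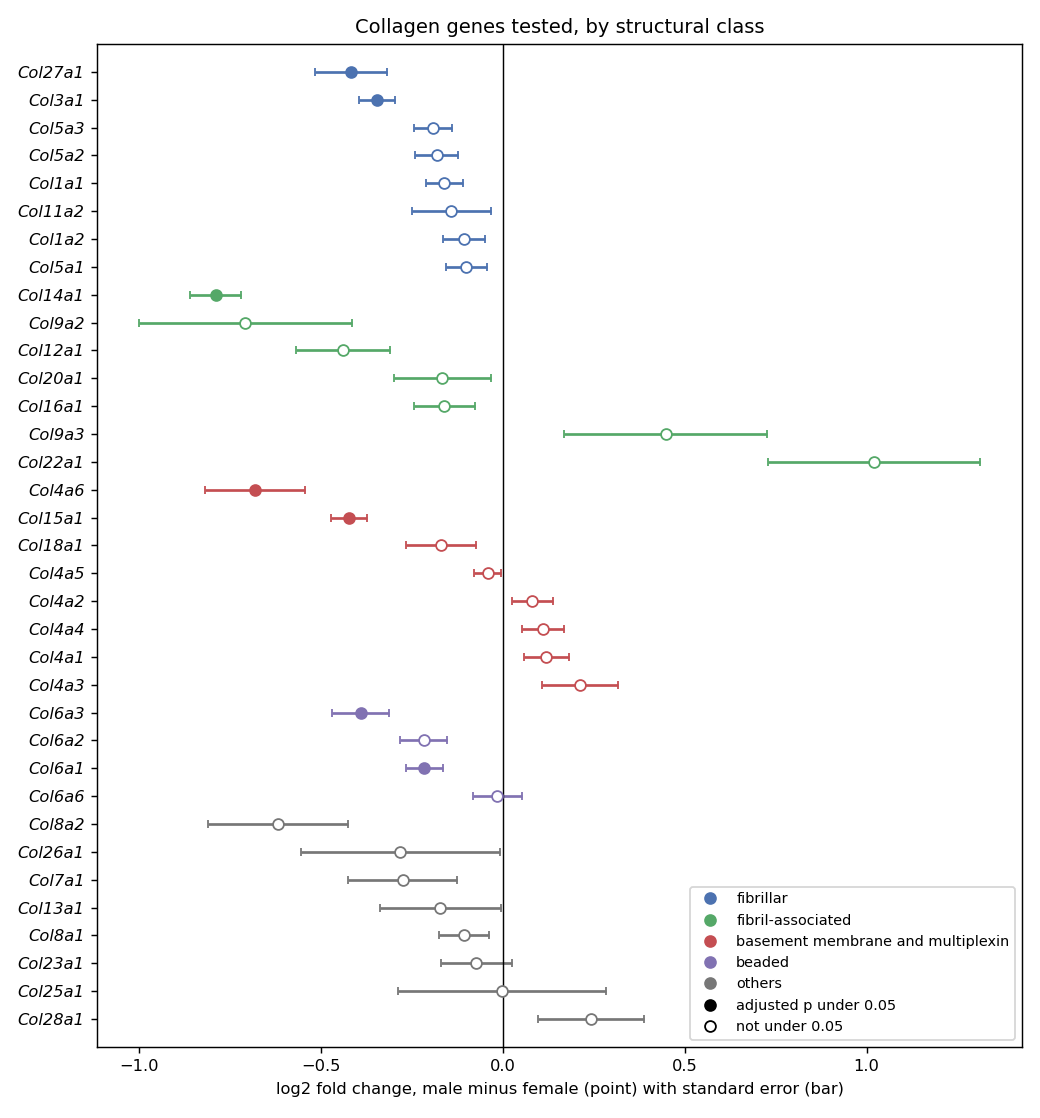
Log2 fold change, male over female, of the 35 tested collagen genes with its standard error, grouped and coloured by structural class. Filled points mark the 7 called genes, all left of 0, and in the basement membrane class Col4a1 to Col4a4 lie right of 0.

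Levels per exon length were spread widely over the family. Values of this kind are CPM per kb, where the length is the summed exon length of the deposited tables. Col4a1 and Col4a2, the main chains of the basement membrane network, led the order. The level of Col4a1, in CPM per kb, was 79.9 ± 7.03 in males and 73.5 ± 3.60 in females (SD, n = 4 each). On the same scale Col4a2 was at 76.5 ± 5.72 in males and 72.4 ± 3.84 in females. Their ranges over the 8 libraries overlapped, and neither overlapped that of Col3a1, next in the order. Means over all libraries were 35.5 CPM per kb for Col3a1, 32.7 for Col6a1, 24.3 for Col1a1, 22.3 for Col15a1, 17.8 for Col6a2 and 14.5 for Col1a2. Within this run, Col3a1 overlapped Col6a1, and the genes from Col1a1 to Col1a2 overlapped each with the next, but Col6a1 and Col1a1 did not. Col5a3, Col5a1 and Col4a5 came next with 9.21, 9.02 and 8.61 CPM per kb and overlapped. In all, 19 genes reached a mean of 10 CPM over the 8 libraries.

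**Figure D2:**
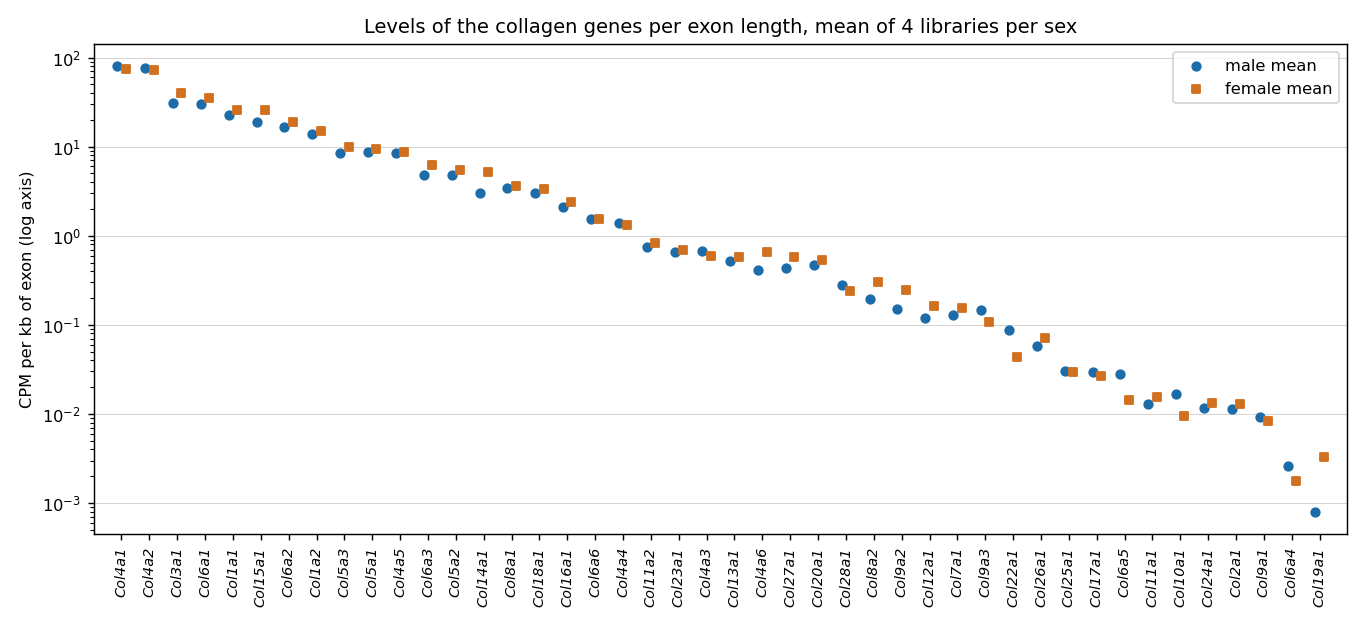
Mean level of the collagen genes, in CPM per kb of exon on a log axis, in the 4 male and the 4 female libraries, ordered by the mean over all 8. Col4a1 and Col4a2 are highest in both sexes, near 76.7 and 74.4 CPM per kb over all libraries.

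The type IV pair held a larger share of collagen counts in males. Col4a1 and Col4a2 together made up, of all collagen counts, 43.1% ± 1.22 in males and 37.4% ± 1.09 in females. All 4 male libraries (41.7% to 44.4%) lay above all 4 female ones (36.1% to 38.7%). The summed level of the pair was 1003 to 1221 CPM in males and 968 to 1095 CPM in females, which overlapped. Fibrillar chains summed to 771 to 892 CPM in males and 902 to 1006 CPM in females, which did not. Their share of collagen counts was 32.1% ± 0.843 in males and 34.8% ± 0.589 in females. Over the whole family the sums were 2404 to 2791 CPM in males and 2640.4 to 2899 CPM in females and overlapped. Shares of 1 total move against each other by construction, and these sums and shares were not tested.

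**Figure D3:**
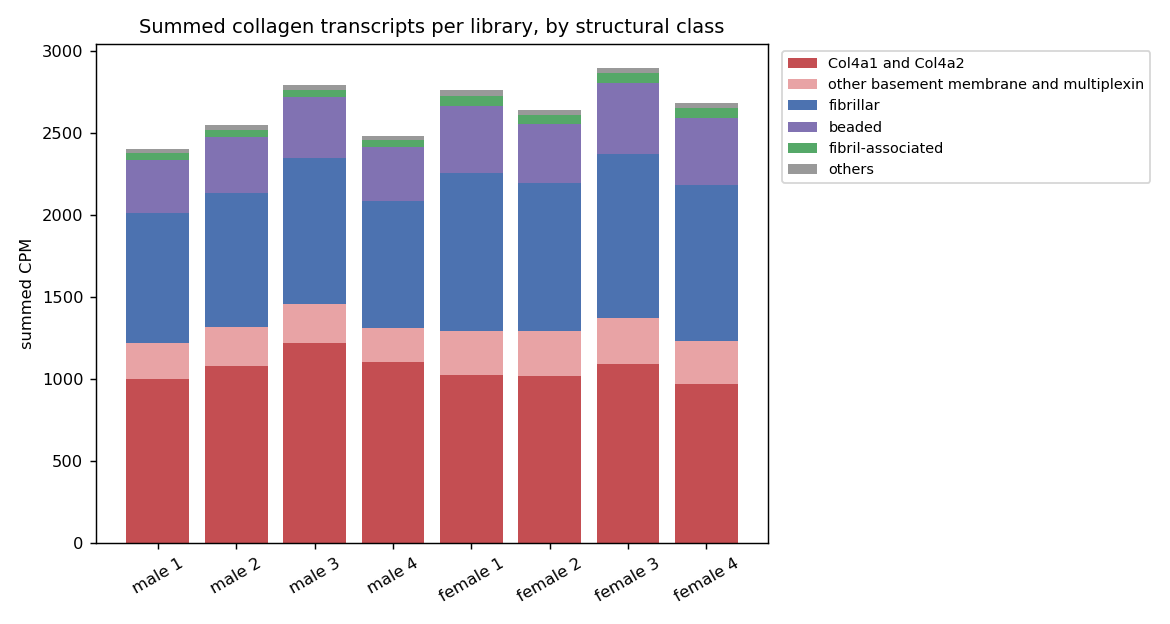
Summed CPM of the collagen genes in each library by structural class, male replicates 1 to 4 and then female replicates 1 to 4. The fibrillar sum is 771 to 892 CPM in males and 902 to 1006 CPM in females, and the basement membrane and multiplexin sum is 1219 to 1456 CPM in males and 1231 to 1370.3 CPM in females.

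Among the fibrillar collagens, Col3a1 and Col27a1 fell in males, and all 8 tested members had negative log2 fold changes, with a median of -0.17. Col3a1, the chain of type III collagen in fine, compliant fibres (chromosome 1, 45311538 to 45349706, plus strand), was at 295, 313, 329 and 289 CPM in males and 390.3, 366, 409.7 and 392 CPM in females, in replicates 1 to 4. Every male value lay below every female value. The level was 1.27-fold higher in females (log2 fold change -0.35, SE 0.05, adjusted p = 0.004). Without male replicates 1 and 4 the log2 fold change was -0.28 (adjusted p = 0.033). Col27a1, a fibrillar collagen known from developing cartilage (chromosome 4, 63214004 to 63334991, plus strand), had 5.41, 6.70, 4.92 and 5.70 CPM in males and 6.82, 7.73, 7.75 and 8.03 CPM in females. The groups were separate by a small margin (log2 fold change -0.42, SE 0.10, adjusted p = 0.043). This call held in 2 of 8 leave-one-out fits, with an adjusted p of 0.11 without male replicate 3, and was lost without male replicates 1 and 4 (0.18).

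The chains of type I collagen, the stiff main fibre of the heart, did not pass the threshold. Col1a1 (chromosome 11, 94936224 to 94953042, plus strand) was at 145, 148, 165 and 143 CPM in males and 171, 159.6, 177 and 167 CPM in females. Only male replicate 3 reached into the female range (log2 fold change -0.16, SE 0.05, adjusted p = 0.1). It passed in DESeq2 (0.041) and without male replicate 3 (0.04). For Col1a2, the partner chain, the values were 172, 167, 192 and 162 CPM in males and 194, 174, 199 and 179.5 CPM in females, with overlap (log2 fold change -0.11, SE 0.06, adjusted p = 0.35). The per-length ratio of Col3a1 to Col1a1 was 1.33 to 1.41 in the male libraries and 1.53 to 1.57 in the female ones, without overlap. The difference between Col3a1 and the type I chains was not tested.

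Type V chains, which sit in the core of type I fibrils and limit their width, were not called. Col5a3 was at 57.3, 59.8, 63.8 and 53.2 CPM in males and 68.6, 65.4, 65.2 and 68.4 CPM in females, without overlap (log2 fold change -0.19, SE 0.05, adjusted p = 0.067). It passed in DESeq2 (0.018), with no filter (0.028) and without male replicate 3 (0.036). Col5a2 was at 45.8 ± 3.27 CPM in males and 51.9 ± 3.41 CPM in females (-0.18, SE 0.06, adjusted p = 0.12). The values of Col5a1 were 73.9 ± 5.75 CPM in males and 79.3 ± 4.03 CPM in females (-0.10, SE 0.06, adjusted p = 0.36). Col11a2, a cartilage type XI chain, was at 5.08 ± 0.392 CPM in males and 5.61 ± 0.753 CPM in females (adjusted p = 0.51). Col2a1, Col11a1 and Col24a1 had 23, 55 and 29 counts over all 8 libraries and were not tested.

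In the fibril-associated class 1 of 7 tested members fell, Col14a1, with the smallest p of the family. Fibril-associated collagens sit on the surface of fibrils and carry interrupted helices, and type XIV collagen, made by fibroblasts, regulates how fibrils join side by side. Col14a1 (chromosome 15, 55307750 to 55520803, plus strand) was at 20.7, 21.97, 22.2 and 18.8 CPM in males and 37.0, 33.0, 40.0 and 34.6 CPM in females. The highest male value was well below the lowest female one, and the level was 1.73-fold higher in females (log2 fold change -0.79, SE 0.07, adjusted p = 0.00014). Its log2 fold change ran from -0.83 to -0.71 over all alternatives tried, and each of them called it.

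The other members of this class did not pass. Col12a1, a close relative of Col14a1 found in load-bearing tissue, was at 1.63, 1.78, 2.06 and 1.90 CPM in males and 2.29, 2.36, 2.92 and 2.42 CPM in females, without overlap (log2 fold change -0.44, SE 0.13, adjusted p = 0.086). Col16a1 was at 14.4 ± 0.792 CPM in males and 16.1 ± 1.99 CPM in females (-0.16, SE 0.08, adjusted p = 0.33). Col22a1, a collagen of tissue junctions such as that of muscle and tendon, pointed the other way. It had 28, 20, 40 and 52 counts in male libraries and 15, 11, 12 and 18 counts in female libraries, or 0.815 ± 0.277 CPM in males and 0.406 ± 0.109 CPM in females. Ranges overlapped at male replicate 2 (log2 fold change 1.02, SE 0.29, adjusted p = 0.081). It passed without male replicate 2 (0.045) and with no filter (0.042). Col9a2 (-0.71, adjusted p = 0.21), Col9a3 (0.45, adjusted p = 0.42) and Col20a1 (-0.17, adjusted p = 0.54) reached at most 2.48 CPM in any library. Exons of Col20a1 share 1.88% of their bases with BX649560.1 on the same strand, which had 2210 counts against 647 for Col20a1. Exons of Col9a3 share 6.07% of their bases with Tcfl5 on the opposite strand, which had 19 counts against 154 for Col9a3. The strand setting of the counts is not given in the sources used here, so reads of Col9a3 and Tcfl5 cannot be told apart there. Col9a1 and Col19a1 had 14 and 4 counts in all and were not tested.

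Of the 4 beaded collagens tested, 2 fell. Type VI collagen forms microfilaments between the basement membrane and the surrounding matrix, from chains of Col6a1 and Col6a2 with that of Col6a3 or a relative. Col6a3 (chromosome 1, 90765923 to 90843971, minus strand) was at 48.2, 58.7, 63.1 and 58.9 CPM in males and 76.3, 66.8, 80.0 and 77.3 CPM in females. No values overlapped, and male replicate 1 was the lowest (log2 fold change -0.39, SE 0.08, adjusted p = 0.02). It was called in 5 of 8 leave-one-out fits, missed most clearly without female replicate 3 (0.056), and missed without male replicates 1 and 4 (0.067). Col6a1 (chromosome 10, 76708792 to 76726168, minus strand) was at 128, 132, 144 and 126 CPM in males and 154, 142, 163 and 157 CPM in females, and male replicate 3 reached past female replicate 2 (log2 fold change -0.22, SE 0.05, adjusted p = 0.042). That call held in 2 of 8 leave-one-out fits, with 0.1 without female replicate 3, and was lost without male replicates 1 and 4 (0.24). Col6a2, which lies next to it, was at 137 ± 9.38 CPM in males and 159 ± 13.4 CPM in females (log2 fold change -0.22, SE 0.06, adjusted p = 0.088). It passed in DESeq2 (0.02), with no filter (0.026) and without female replicate 2 (0.025). Col6a6, whose chain is related to that of Col6a3, was at 13.99 ± 0.851 CPM in males and 14.1 ± 1.04 CPM in females (-0.02, SE 0.07, adjusted p = 0.93). Col6a5 had 46 counts over the male and 19 over the female libraries, Col6a4 had 4 and 2, and neither was tested.

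In the basement membrane and multiplexin class, Col15a1 and Col4a6 fell, while 4 of the 8 members had positive log2 fold changes. Type XV collagen is a multiplexin, a proteoglycan that ties the basement membrane of capillaries and muscle to nearby fibrils. Col15a1 (chromosome 4, 47208161 to 47313167, plus strand) was at 116, 129, 128 and 111 CPM in males and 163, 161, 161 and 163 CPM in females. Female values were nearly equal and far above the highest male one, and the level was 1.34-fold higher in females (log2 fold change -0.42, SE 0.05, adjusted p = 0.00097). Every alternative tried called it. Its relative Col18a1, whose protein contains endostatin, was at 20.97 ± 1.45 CPM in males and 23.6 ± 3.62 CPM in females (-0.17, SE 0.10, adjusted p = 0.37).

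The abundant type IV chains were not called. Col4a1 was at 537, 589.5, 665 and 593 CPM in males and 551, 542, 583 and 518 CPM in females. Male replicate 1 was lower than female replicates 1, 2 and 3, and male replicate 3 was the highest of all 8 (log2 fold change 0.12, SE 0.06, adjusted p = 0.31). Col4a2 was at 466, 494, 556 and 509.6 CPM in males and 475, 480.1, 512 and 449.9 CPM in females (log2 fold change 0.08, SE 0.06, adjusted p = 0.48). Both log2 fold changes were positive under all alternatives, from 0.06 to 0.19 for Col4a1 and from 0.03 to 0.13 for Col4a2. Col4a3 and Col4a4 are chains known from the basement membrane of the kidney filter. Col4a3 was at 6.79 ± 0.746 CPM in males and 5.86 ± 0.662 CPM in females (0.21, SE 0.10, adjusted p = 0.29), and 5.65% of its exon bases are shared with a gene on the other strand. The level of Col4a4 was 14.9 ± 0.799 CPM in males and 13.8 ± 0.574 CPM in females (0.11, SE 0.06, adjusted p = 0.33).

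The X-linked chains Col4a5 and Col4a6 can join in 1 network, and Col4a6 is known from smooth muscle basement membranes. Col4a6 (chromosome X, 141165403 to 141474076, minus strand) was at 3.47, 3.50, 3.54 and 2.49 CPM in males and 5.37, 5.51, 5.76 and 4.15 CPM in females. No values overlapped, and replicate 4 was the lowest in each sex (log2 fold change -0.68, SE 0.14, adjusted p = 0.021). It was called in 5 of 8 leave-one-out fits and missed without female replicate 1 (0.056), female replicate 2 (0.06) or female replicate 3 (0.06). Without male replicates 1 and 4 it was at -0.57 (adjusted p = 0.088). Col4a5 (chromosome X, 141475385 to 141689234, plus strand) was at 55.5, 56.3, 58.0 and 58.2 CPM in males and 58.1, 59.8, 60.8 and 56.1 CPM in females, with overlap (log2 fold change -0.04, SE 0.04, adjusted p = 0.58). The per-length ratio of Col4a5 to Col4a6 was 18.96, 19.1, 19.4 and 27.8 in males and 12.8, 12.9, 12.5 and 16.04 in females, without overlap.

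**Figure D4:**
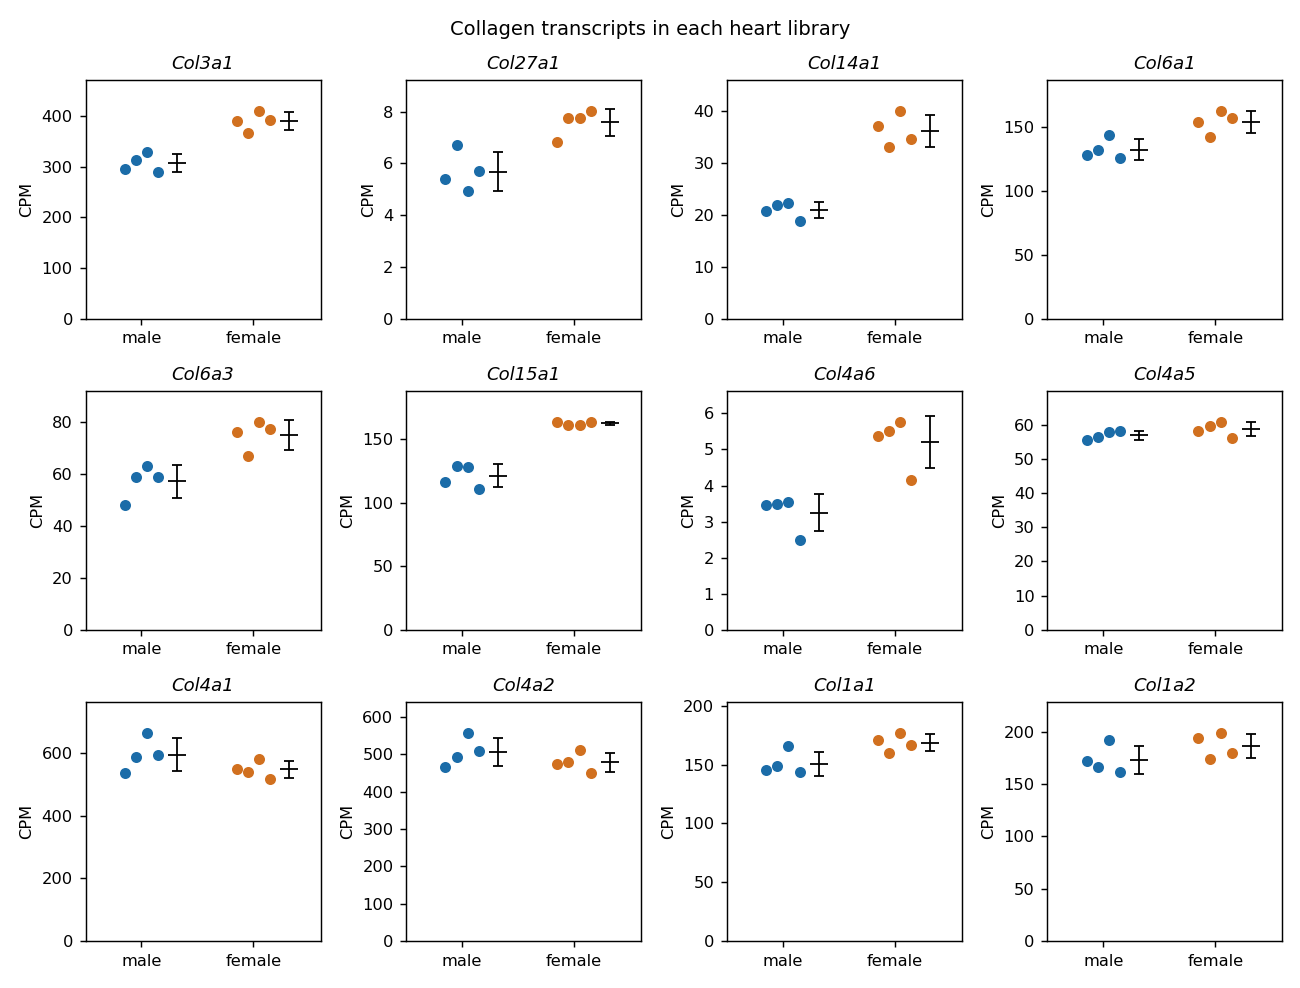
CPM of 12 collagen genes in the 4 male libraries (left in each panel) and the 4 female libraries (right), replicates 1 to 4 from left to right within a sex, with mean and SD beside the points and axes from 0. Male values lie below female values in Col3a1, Col27a1, Col14a1, Col6a3, Col15a1 and Col4a6, and overlap them in the other 6 genes.

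The type IV genes are known to lie in pairs, head to head, and the deposited coordinates show 3 such pairs. Col4a1 and Col4a2 (chromosome 8) overlap by 22 bases at their starts. Col4a4 and Col4a3 (chromosome 1) are 71 bases apart, and Col4a6 and Col4a5 are 1308 bases apart. Other neighbours within 100 kb are Col9a1 and Col19a1, Col3a1 and Col5a2, Col6a2 and Col6a1, and the row of Col6a6, Col6a5 and Col6a4.

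For the head-to-head genes, the promoter windows of the X-linked pair and of Col4a1 and Col4a2 are given, from RefSeq on GRCm38.p6. Each runs from 250 bases before to 50 after the RefSeq start, in the direction of its gene. Capitals mark exact matches on either strand to the GC box (GGGCGG), the CCAAT box (CCAAT) and the TATA box (TATAAA), and no match overlaps another. The window of Col4a6 is chrX:141474027-141474326, minus strand, and that of Col4a5 is chrX:141475169-141475468, plus strand. The window of Col4a1 is chr8:11312777-11313076, minus strand, and that of Col4a2 is chr8:11312555-11312854, plus strand. The window of Col3a1, chr1:45311288-45311587, plus strand, is added as that of the most abundant gene that fell.
Col4a6: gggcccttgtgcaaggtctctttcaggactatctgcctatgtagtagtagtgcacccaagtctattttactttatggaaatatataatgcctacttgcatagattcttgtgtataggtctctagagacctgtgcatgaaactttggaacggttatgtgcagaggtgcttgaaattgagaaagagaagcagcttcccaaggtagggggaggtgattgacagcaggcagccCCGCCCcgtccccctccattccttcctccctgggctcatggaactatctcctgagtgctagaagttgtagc
Col4a5: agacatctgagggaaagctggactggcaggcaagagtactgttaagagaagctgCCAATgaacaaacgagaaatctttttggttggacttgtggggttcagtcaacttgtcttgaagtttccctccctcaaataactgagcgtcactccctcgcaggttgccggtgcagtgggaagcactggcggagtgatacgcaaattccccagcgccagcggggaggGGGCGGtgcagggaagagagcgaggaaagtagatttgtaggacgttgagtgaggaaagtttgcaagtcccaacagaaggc
Col4a1: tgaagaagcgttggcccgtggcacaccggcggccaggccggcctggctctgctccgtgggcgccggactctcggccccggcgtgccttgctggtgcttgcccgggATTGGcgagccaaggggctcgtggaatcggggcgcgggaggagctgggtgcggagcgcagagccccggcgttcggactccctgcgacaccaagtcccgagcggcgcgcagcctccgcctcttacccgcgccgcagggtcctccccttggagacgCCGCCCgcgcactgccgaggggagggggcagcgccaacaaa
Col4a2: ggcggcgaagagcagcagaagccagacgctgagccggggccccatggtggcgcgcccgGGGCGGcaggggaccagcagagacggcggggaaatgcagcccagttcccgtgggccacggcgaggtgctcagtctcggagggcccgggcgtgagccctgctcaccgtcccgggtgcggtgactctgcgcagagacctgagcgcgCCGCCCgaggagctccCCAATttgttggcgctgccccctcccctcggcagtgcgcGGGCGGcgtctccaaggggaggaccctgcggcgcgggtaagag
Col3a1: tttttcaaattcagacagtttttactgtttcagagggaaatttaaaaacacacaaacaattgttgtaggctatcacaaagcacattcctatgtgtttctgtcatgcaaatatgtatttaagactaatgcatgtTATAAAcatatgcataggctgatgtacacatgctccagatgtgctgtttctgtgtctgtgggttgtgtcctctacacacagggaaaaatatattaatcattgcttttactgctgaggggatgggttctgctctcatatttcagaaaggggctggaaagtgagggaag

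The windows of Col4a1 and Col4a2 cover the same 78 bases on opposite strands, while those of Col4a6 and Col4a5 share no bases. G and C made up 74.0% of the bases for Col4a1, 73.7% for Col4a2, 48.3% for Col4a6, 52.7% for Col4a5 and 37.7% for Col3a1, against a median of 52.7% over 32851 windows of all genes. The GC box matched once in the Col4a6, Col4a5 and Col4a1 windows and 3 times in that of Col4a2. The Col4a1 match and the last of the Col4a2 matches are the same bases, read on opposite strands. The GC box occurs in 35.7% of all windows and in 23 of 38 windows of 35 collagen genes. A CCAAT box was found in the Col4a5, Col4a1 and Col4a2 windows, in 37.4% of all windows and in 13 of the 38 collagen windows. The TATA letters were found in the Col3a1 window, at position -117 from the start, in 13.6% of all windows and in 5 of the 38 collagen windows. Matches are letters in these windows, not sites of binding. Col14a1 is among the members with no window in the table.

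The remaining class, of transmembrane, anchoring and hexagonal network collagens, gave no calls. Of its 8 tested members 0 rose or fell in edgeR, DESeq2 or limma-voom, with 1 at an unadjusted p below 0.05. That gene, Col8a2, was at 0.655, 0.964, 0.914 and 1.00 CPM in males and 0.996, 1.37, 1.52 and 1.55 CPM in females (log2 fold change -0.62, SE 0.19, adjusted p = 0.1). Its more abundant partner in the network of vessel walls, Col8a1, was at 17.3 ± 1.10 CPM in males and 18.7 ± 1.49 CPM in females (-0.11, SE 0.07, adjusted p = 0.42). Col7a1, the anchoring fibril collagen of skin, Col13a1, Col23a1, Col25a1, Col26a1 and Col28a1 had group means of 0.384 to 3.95 CPM. Their log2 fold changes ran from -0.28 to 0.24, with adjusted p of at least 0.34. Col10a1, of hypertrophic cartilage, had 13 counts, and Col17a1, of skin hemidesmosomes, had 51. Exons of Col10a1 overlap those of Nt5dc1, on the other strand and with 2159 counts, by 18 bases, or 0.575% of the Col10a1 exon length. The origin of the Col10a1 counts was not tested.

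The remaining ratios of chains that join in 1 protein overlapped between the sexes, with 1 exception. The per-length ratio of Col1a1 to Col1a2 was 1.65 ± 0.0404 in males and 1.71 ± 0.0441 in females. For Col4a1 to Col4a2 it was 1.04 ± 0.0191 in males and 1.02 ± 0.0128 in females. The Col6a1 to Col6a2 ratio was 1.84 ± 0.0237 in males and 1.84 ± 0.0753 in females. Without overlap was the ratio of Col6a3 to Col6a1, at 0.158 ± 0.0143 in males and 0.178 ± 0.00459 in females, with the highest male value at 0.171 and the lowest female value at 0.172. These ratios depend on the summed exon lengths, which include alternative exons, and were not tested.

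Single libraries were high or low over many members. Female replicate 3 was the highest of the 4 female libraries in 21 of the 35 tested members, and male replicate 3 was the highest of the 4 male libraries in 23. Male replicate 4 was the lowest male library in 16 and female replicate 2 the lowest female one in 15. The biological coefficient of variation was 0.0424 to 0.0962 in the 19 genes of at least 10 CPM and reached 0.218 among the rest.

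Genes that build collagen were called in both directions. Of 20 tested enzymes and chaperones of collagen folding, 2 rose and 1 fell, which is 15% called, against 3.79% of all genes tested, with a median log2 fold change of 0.03. In 5 of the 20 the male values all lay above the female values, against 6.39% of all genes tested. In 1 they all lay below, against 5.66%. P4ha2, a catalytic subunit of prolyl 4-hydroxylase, which stabilises the helix, was at 64.2, 67.3, 78.2 and 64.5 CPM in males and 54.5, 51.2, 58.4 and 56.2 CPM in females (log2 fold change 0.32, SE 0.06, adjusted p = 0.021). The call of P4ha2 held in 6 of 8 leave-one-out fits, with 0.061 without female replicate 2. Tmem38b, an endoplasmic reticulum cation channel needed for collagen processing in bone cells, was at 30.3 ± 1.46 CPM in males and 24.8 ± 0.881 CPM in females (0.29, SE 0.05, adjusted p = 0.0084). Fkbp10, a collagen chaperone, fell, at 28.5 ± 0.802 CPM in males and 33.2 ± 1.29 CPM in females (-0.22, SE 0.04, adjusted p = 0.016), and was not called without male replicates 1 and 4 (0.13). Of 8 tested procollagen proteinases and enhancers, 0 were called by edgeR or limma-voom and 1 by DESeq2, with 1 higher and 1 lower at an unadjusted p below 0.05 and a median of -0.07. The enhancer gene Pcolce2 had the smallest p, at 21.7 ± 1.007 CPM in males and 25.2 ± 1.55 CPM in females (-0.22, SE 0.06, adjusted p = 0.055, and 0.022 in DESeq2).

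Of the genes that crosslink, bind or degrade collagen, 1 was called in each list. That is 14.3% of the crosslinking enzymes, 10% of the receptors and 16.7% of the tested proteases, against 3.79% of all genes tested. Of 7 crosslinking enzymes, Tgm2, a transglutaminase of many tissues, rose, at 313 ± 22.8 CPM in males and 257 ± 21.2 CPM in females (0.29, SE 0.07, adjusted p = 0.035), and the lysyl oxidases were not called (median of the list -0.00). Of 10 receptors, Mrc2, the endocytic collagen receptor, fell, at 33.1 ± 1.40 CPM in males and 38.1 ± 1.81 CPM in females (-0.20, SE 0.05, adjusted p = 0.032), where the list had a median of 0.04. Among 6 tested proteases, Mmp14, the membrane collagenase, fell, at 19.96 ± 0.368 CPM in males and 23.6 ± 1.52 CPM in females (-0.24, SE 0.05, adjusted p = 0.029), and all 6 log2 fold changes were negative, with a median of -0.23. Each of these calls held in 2 of 8 leave-one-out fits. Their highest adjusted p were 0.095 for Tgm2 without male replicate 3, 0.082 for Mrc2 without female replicate 4 and 0.071 for Mmp14 without male replicate 3. Without male replicates 1 and 4 they were 0.12, 0.17 and 0.15.

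Fibroblast markers mostly had lower levels in males, while most were not called. Of 16 such markers, 15 had a negative log2 fold change, with a median of -0.21. By edgeR 6 fell, 1 rose and 9 were not called, against 1.76% of all genes tested that fell and 2.03% that rose. DESeq2 gave 8 lower and 1 higher, and an unadjusted p below 0.05 gave 12 lower and 1 higher. In 9 markers the male values all lay below the female values, against 5.66% of all genes tested. In 1 they all lay above, against 6.39%. The summed level of the 16 was 2710.2 to 3107 CPM in males and 3178 to 3369.7 CPM in females. Most of this sum was Gsn, at 1936 CPM in males and 2072 CPM in females on average and not called (adjusted p = 0.31). The decorin gene Dcn was not called either (log2 fold change -0.04, SE 0.05, adjusted p = 0.73). Lumican (Lum, log2 fold change -0.66, SE 0.06, adjusted p = 0.00028) and Smoc2 (log2 fold change -0.41, SE 0.04, adjusted p = 0.00014) fell, the scavenger receptor gene Scara5 rose (log2 fold change 0.27, SE 0.05, adjusted p = 0.014), and the receptor gene Pdgfra was not called (log2 fold change -0.13, SE 0.04, adjusted p = 0.11). None of the 16 was at 0. In bulk tissue, fewer cells of a type and less RNA per cell cannot be told apart, and the part of fibroblast content in the collagen values was not tested. Activated fibroblast markers summed to 315 to 375 CPM in males and 377 to 441 CPM in females. Of the 9 tested, 2 fell, the fibronectin gene Fn1 and the smooth muscle actin gene Acta2, and 7 were not called. Acta2 had the highest mean of this list, at 121 ± 17.7 CPM in males and 158 ± 6.35 CPM in females. It is also a smooth muscle marker, and the sum without it was not taken.

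Counts by edgeR for markers of other cells stand against the same shares of all genes tested, 1.76% that fell and 2.03% that rose. DESeq2 called 964 genes in all, and no share of all genes was taken at an unadjusted p. White adipocyte markers fell in 8 of 12, with a median log2 fold change of -2.22. They summed to 581 to 688 CPM in males and 710.2 to 885 CPM in females. Most of this sum was Fabp4, at 494 CPM in males and 527 CPM in females, which was not called (adjusted p = 0.3) and is also among the endothelial markers. Of 10 endothelial markers 1 rose and 0 fell by edgeR, with a median of 0.06. DESeq2 gave 3 higher and 1 lower, and an unadjusted p below 0.05 gave 3 higher and 2 lower. The endothelial markers summed to 2552 to 2823 CPM in males and 2547 to 2635 CPM in females. Of 11 pericyte and smooth muscle markers 1 rose and 1 fell, at 1156 to 1225 CPM in males and 1162 to 1259 CPM in females, with a median of -0.16. The one that fell is Acta2, counted above. Valve and cartilage markers, 6 tested of 10, gave 1 that rose, at 36.0 to 40.1 CPM in males and 40.2 to 51.7 CPM in females, with a median of -0.18. Schwann cell markers gave 1 of 10 that fell, at 62.0 to 68.2 CPM in males and 64.8 to 75.6 CPM in females, with a median of -0.15. For the 8 atrial markers edgeR, DESeq2 and an unadjusted p below 0.05 gave 0. For the 8 mesothelial markers, at 90.5 to 112 CPM in males and 94.1 to 120.2 CPM in females, edgeR and DESeq2 gave 0 and the unadjusted p gave 1. Of the 10 heart muscle markers edgeR called 0, DESeq2 called 1 and the unadjusted p gave 1. Of the 10 leukocyte markers edgeR called 0, while DESeq2 and the unadjusted p each gave 1 higher and 1 lower. The part of any of these cells in the collagen values was not tested.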

How the data were processed

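RNA from hearts was extracted with Trizol and made into libraries with an Illumina TruSeq RNA kit, per the labels' protocols. The authors deposited raw counts per gene. The submitters' processing notes name Trimmomatic 0.36, STAR 2.5.2b, featureCounts of Subread 1.5.2 and GRCm38 (mm10), without their order. Annotation version, strand setting and treatment of multi-mapping reads are not given in the sources used here. The deposited single-sample tables held 100% the same counts and gave coordinates and exon lengths. A second deposited table is a normalized signal, which from its values is the raw count over 1 size factor per library (100% of values whole within 0.01), and it served in an alternative. Of the 49315 gene IDs, 48970 matched a symbol.

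The filter filterByExpr (at least 10 counts, total of at least 15) kept 16180 genes and 35 of 44 collagens. TMM scaling and edgeR 4.0.16 (quasi-likelihood, R 4.3.3) gave the tests, with Benjamini-Hochberg adjustment at 0.05. The SE was derived from the fold change and the F statistic. Collagens called or at a mean of at least 10 CPM are named with values. Col22a1, Col12a1, Col8a2 and other collagens outside that rule were given values after these were seen, as were single marker genes. For each partner list, up to 2 called genes per direction are named, or the one with the smallest p. The members and lists were chosen with earlier results of these data known, and no list was tested as a set.

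Alternatives were DESeq2 size factors, upper-quartile scaling, leaving out the filter, requiring 1 CPM in 4 libraries, DESeq2 1.42.0, limma-voom (limma 3.58.1), a block for the replicate number, leaving out single libraries, limma on that deposited signal (log2, pseudocount 1), and thinning to the smallest total. Leaving out male replicates 1 and 4 together was added after seeing the data. In simulated data for the male and female comparison with 16180 genes, 42%, 68%, 84% and 98% of 50 genes each were recovered at changes of 1.25, 1.5, 2 and 4-fold, and 14 of 160 calls were false.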

Additional observations from a re-analysis of the deposited data

Results flagged for a closer look

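Of 116 groups of 4 libraries examined over the tested collagens, their sums and ratios, 4 had a sample far from the other 3. Chance gives about 1 in 20 independent groups, a share that 4 of 116 does not exceed. The groups here are not independent, since sums and ratios reuse single genes, and both flagged ratios have Col4a6 as denominator. Col4a6 in male replicate 4 was at 2.49 CPM, against 3.47, 3.50 and 3.54 CPM in the other male libraries. Col25a1, a transmembrane collagen known from neurons, was at 0.240 CPM in male replicate 4, against 0.431, 0.437 and 0.445 CPM in the other male libraries. These rest on 11 counts against 17, 18 and 19 counts, and female replicate 4 was at 0.239 CPM with 8 counts. The per-length ratio of Col4a5 to Col4a6 was 27.8 in male replicate 4, against 18.96, 19.1 and 19.4 in the other male libraries. The same ratio was 16.04 in female replicate 4, against 12.5, 12.8 and 12.9 in the other female libraries. Male replicate 4 is also the library with few atrial transcripts, and the part of this in the values was not tested.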

How the results depend on the processing

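The direction of each collagen that was called or reached 10 CPM held under all alternatives, apart from that of Col6a6. Its log2 fold change ran from -0.057 to 0.036 with 1 library left out, and was positive without male replicate 2 (0.0054), male replicate 3 (0.0078) and female replicate 3 (0.036), without a call. With 1 library left out, 3 to 8 collagens fell, 0 to 1 rose, 3 to 5 partner genes and 315 to 490 genes in all were called, against 7, 0, 6 and 613 with all libraries. With no filter, 1 collagen rose, 9 fell, and 10 partner genes and 917 genes were called. DESeq2 called 964 genes, and 10 collagens fell. The same 7 collagens fell after thinning to the smallest library total. They also fell with DESeq2 size factors, with upper-quartile scaling and with the filter of 1 CPM in 4 libraries. Limma on the log2 normalized signal called 172 genes, 3 collagens that fell and 1 partner gene. Without male replicates 1 and 4, 217 genes, 3 collagens that fell and 3 partner genes were called. Leave-one-out fits use fewer libraries, and otherwise the cause was not tested.

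Same-numbered male and female libraries did not deviate together, with correlations of -0.047 to 0.054, so no pairing by number was seen. These values cannot exclude a pairing, since differences between single libraries may hide it. With the replicate block 427 genes were called, 6 collagens fell, Col27a1 being the one lost (adjusted p = 0.059), and 6 partner genes were called, without Mmp14 (adjusted p = 0.051). No library correlated best with the library of its own number in the other sex. Collagens under 1 CPM rest on few counts, which limits what this depth can show.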
